A study of Homo sapiens with 4 samples.

Results

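Voltage-gated calcium and sodium channel genes were followed in A673, an established line of Ewing sarcoma, a bone and soft tissue tumour driven in these cells by the EWSR1-FLI1 fusion. The members were the protein-coding genes whose symbols name a subunit of these channels, which are CACNA1, CACNA2D, CACNB and CACNG for calcium channels and SCN followed by a number and A or B for sodium channels. This rule found 40 of the 60617 genes in the table, 26 of calcium channels and 14 of sodium channels. Of these, 20 encode a pore and 20 an auxiliary subunit. RNA was sequenced from 2 libraries of cells given CBL0137 at 1 µM for 24 h and 2 libraries of cells given DMSO, the solvent, for the same time. The curaxin CBL0137 binds DNA without cutting it, and the histone chaperone FACT becomes trapped on chromatin. All libraries came from the same line with no other agent or genetic change named in the labels.

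A voltage-gated channel opens when the membrane depolarizes and lets calcium or sodium ions into the cell. The pore subunit (the α1 subunit of calcium channels, the α subunit of sodium channels) forms the ion path and carries the voltage sensor, while auxiliary subunits (α2δ, β and γ of calcium channels, β of sodium channels) set how many channels reach the membrane and how they gate. Calcium channels fall into T-type, which open near the resting potential, and types that need a stronger depolarization (L, P/Q, N and R). Such channels are best known from neurons, muscle and heart, and several γ subunits act mainly as partners of AMPA-type glutamate receptors.

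Reads assigned to genes numbered 20483714 to 23373554 per library. Chi-square per degree of freedom over genes was 2.07 for the DMSO pair, 2.57 for the CBL0137 pair and 20.8 for the first replicates of the opposite conditions. Nothing in the labels names separate cultures, so the p-values cover only library-to-library spread, possibly technical. The 8 Ewing sarcoma markers, among them CD99 and NKX2-2, were all detected, with a summed level of 5802 to 5830 CPM (counts scaled to library size with TMM factors) in DMSO and 5619 to 5625 in CBL0137. Muscle and heart markers that accompany many of these channels in their home tissues had small CPM sums. The 9 skeletal muscle markers summed to 14.1 to 14.4 CPM in DMSO and 14.1 to 15.4 in CBL0137. Of them TTN held most, at 10.1 to 11.4 CPM, and MYOD1, MYOG and CHRNA1 had 0. The 7 heart muscle markers summed to 10.5 to 11.5 CPM in DMSO and 11.1 to 12.0 in CBL0137. Of them NKX2-5 held most, at 7.99 to 8.90 CPM, and MYH6, MYH7 and MYL7 had 0. The heart marker TNNI3 measured 2.19 to 3.07 CPM in the 4 libraries. On the deposited FPKM, which corrects for gene length, it was not low, at 17.2 and 19.1 in DMSO and 10.3 and 25.2 in CBL0137. Epithelial markers summed to 0.475 to 0.875 CPM over the 4 libraries and blood markers to 1.24 to 1.6. The 10 neuronal markers summed to 373 to 383 CPM in DMSO and 333 to 346 in CBL0137. SYT1 measured 233 and 230.0 CPM in DMSO and 171 and 176 in CBL0137, inside the fold limit (log2 fold change -0.42, edgeR adjusted p = 4.4e-09). Without SYT1, left out after its values were seen, the other 9 summed to 150 and 143 CPM in DMSO and 162 and 170 in CBL0137. Most of that sum was NEFL, at 109 and 99.4 CPM in DMSO and 106 and 114 in CBL0137, which overlap. NEFL was not called. MAP2 measured 1.05 and 0.711 CPM in DMSO and 0.286 and 0.648 in CBL0137 and was not called (-0.89, edgeR adjusted p = 0.16). SYP (log2 fold change 0.48, edgeR adjusted p = 5.0e-04) and SNAP25 (0.32, edgeR adjusted p = 0.011) had higher values inside the fold limit, and STMN2 had 0 counts in DMSO and at most 0.0863 CPM in CBL0137. Of the 8 neuronal markers tested, 5 had a log2 fold change above 0 and 3 below. Among them 1 was called higher, SLC17A7, a vesicular glutamate transporter (fold 1.59), and 0 lower, beside 6.88% and 2.73% of all genes tested. The part that these shifts play in the channel results was not tested.

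Exposure to CBL0137 was accompanied by higher levels of 6 channel genes and lower levels of 0 under the limits the study set. They included the γ subunit genes CACNG7 (9.63-fold) and CACNG8 (2.25-fold), the T-type pore CACNA1G (1.57-fold), the P/Q-type pore CACNA1A (1.65-fold) and the sodium channel pore SCN8A (1.6-fold). The most abundant pore transcript per length, CACNA1H, shifted upward by 1.36-fold and stayed inside the fold limit. A gene was called when edgeR's quasi-likelihood test gave a Benjamini-Hochberg adjusted p under 0.05 over all tested genes and the fold change exceeded 1.5. Of the 40 members, 27 passed the filter on low counts, and the 6 called higher were 22.2% of those, beside 6.88% of all 17309 genes tested. For calls lower in CBL0137 the count was 0 of 27, beside 2.73% of all genes tested. DESeq2 and limma-voom also called 0 members lower, beside 2.16% of the genes DESeq2 tested and 470 of 17309 in limma-voom. At an unadjusted p under 0.05, edgeR had 10 of 27 members higher and 0 lower, beside 3803 and 3954 of all 17309 genes tested. CACNG7 reached the filter in 1 of 2 DMSO libraries and in both CBL0137 libraries, so the share among members that passed is partly set by the filter. DESeq2 called 4 members higher (CACNG7, CACNG8, CACNA1A and CACNA1G), beside 3.93% of the genes it tested. In bulk RNA, a change in how many cells express a gene and a change in RNA per cell cannot be told apart.

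**Figure D1:**
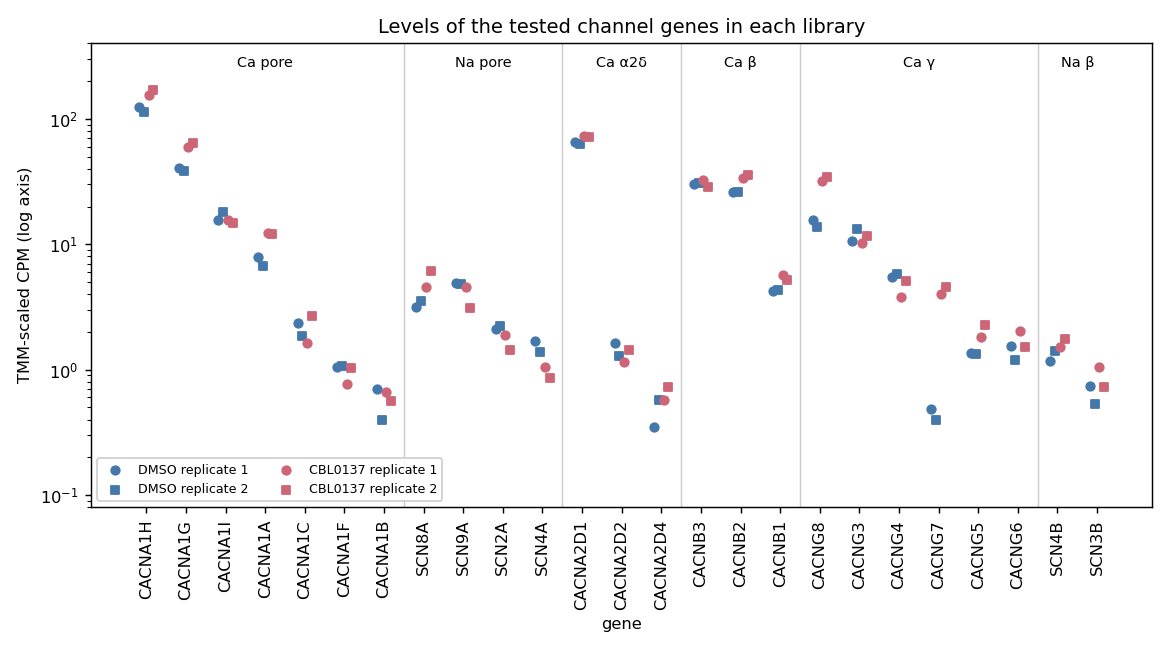
TMM-scaled CPM (log axis) of 25 tested channel genes, grouped by subunit class, with 1 point per library (blue DMSO, red CBL0137; circles replicate 1, squares replicate 2). CACNG7 sits at 0.400 to 0.481 in DMSO and 4.0 to 4.58 in CBL0137; heights are not corrected for gene length, so they compare libraries and not genes.

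Levels of different genes were compared only on the deposited FPKM, which corrects for gene length. In DMSO replicates 1 and 2 the highest member was the T-type pore CACNA1H, at 10.8 and 10.0 FPKM, followed by the calcium channel β subunit CACNB3 at 6.62 and 6.89. Next came CACNB2 at 3.22 and 3.79 FPKM and the T-type pore CACNA1G at 3.45 and 3.26, whose ranges overlap. Then came the γ subunit CACNG3 at 2.22 and 2.78 and the α2δ subunit CACNA2D1 at 2.29 and 2.16, which overlap as well. The order below CACNA1H holds for the deposited FPKM alone. By counts over annotated exon length, CACNA2D1 and CACNG3 would stand above CACNB3. In DMSO, CACNA2D1 had 65.1 and 63.3 CPM over 9168 exon bases and CACNG3 10.6 and 13.1 over 1917. CACNB3 had 30.2 and 31.0 CPM over 7153. The 3 T-type pores took 92.7% to 96.8% of the summed calcium pore FPKM in the 4 libraries. The β and α2δ subunits, which partner mainly the channels that need strong depolarization, were thus found beside pores that were mostly T-type.

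T-type calcium channels pass small currents near rest and are encoded by CACNA1G, CACNA1H and CACNA1I. CACNA1G (ENSG00000006283, chromosome 17, 48638076 to 48704835 in GRCh37) measured 40.4 and 38.5 CPM in the DMSO libraries and 59.7 and 64.5 in the treated ones. Both treated libraries lay above both controls, a rise of 0.65 ± 0.06 (log2 fold change ± SE) with an edgeR adjusted p of 5.5e-09. On the deposited FPKM (3.45 and 3.26 against 4.22 and 6.03) limma on log2(FPKM + 1) gave 0.48 and no call (adjusted p = 0.122). Its antisense neighbour CACNA1G-AS1, which overlaps its 5′ end on the other strand and cannot be told apart from it without strand, had 4 and 3 counts in DMSO and 12 and 12 in CBL0137, against 867 to 1494 counts for CACNA1G. CACNA1H (ENSG00000196557, chromosome 16, 1203106 to 1271771) measured 125 and 114 CPM in DMSO and 155 and 171 in CBL0137. Those groups did not overlap either, and its log2 fold change of 0.45 ± 0.05 (edgeR adjusted p = 7.8e-08) was below the fold limit. CACNA1I, the third T-type pore, stood at 15.7 and 18.3 CPM in DMSO and 15.5 and 14.9 in CBL0137. Its log2 fold change was -0.16 ± 0.10, and it was not called (edgeR adjusted p = 0.23).

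Pores that open on strong depolarization were mostly weak or silent. The exception in response was CACNA1A, the pore of P/Q-type channels that drive transmitter release at many synapses (ENSG00000141837, chromosome 19, 13317256 to 13743839). It measured 7.97 and 6.75 CPM in DMSO and 12.2 and 12.1 in CBL0137, without overlap, a rise of 0.72 ± 0.13 on the log2 scale (edgeR adjusted p = 7.3e-05). Its deposited FPKM did not follow the counts, at 1.05 and 0.377 in DMSO and 0.447 and 1.02 in CBL0137, and limma on log2(FPKM + 1) gave a log2 fold change of 0.02 (adjusted p = 0.961). CACNA1C, the L-type pore of heart and smooth muscle, held 2.36 and 1.87 CPM in DMSO and 1.62 and 2.68 in CBL0137, which overlap, and was not called (log2 difference 0.03 ± 0.28, edgeR adjusted p = 0.94). The retinal L-type pore CACNA1F stayed between 0.762 and 1.07 CPM and the N-type pore CACNA1B between 0.400 and 0.700 in the 4 libraries, and neither was called.

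Sodium channel pores launch the action potential, and each is typical of certain tissues. SCN8A, a pore of central neurons (ENSG00000196876, chromosome 12, 51984050 to 52206648), measured 3.15 and 3.55 CPM in DMSO and 4.57 and 6.13 in CBL0137. Its log2 fold change was 0.68 ± 0.20 (edgeR adjusted p = 0.0076), and the call was lost without CBL0137 replicate 2 (0.45, adjusted p = 0.16) and in DESeq2 (0.67, adjusted p = 0.111).

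The sodium pores SCN9A, SCN2A and SCN4A had lower values in CBL0137 and were not called. SCN9A, a pore of pain-sensing neurons, measured 4.95 and 4.80 CPM in DMSO and 4.52 and 3.11 in CBL0137 (log2 fold change -0.36 ± 0.20, edgeR adjusted p = 0.16). Without CBL0137 replicate 1 it was called lower (-0.65, adjusted p = 0.0244). SCN2A, a pore of developing axons, measured 2.10 and 2.22 CPM in DMSO and 1.90 and 1.42 in CBL0137 (-0.38 ± 0.28, edgeR adjusted p = 0.31). SCN4A, the skeletal muscle pore, measured 1.71 and 1.38 CPM in DMSO and 1.05 and 0.863 in CBL0137 (-0.69 ± 0.35, edgeR adjusted p = 0.13). In these 3 genes both control libraries lay above both treated ones, a pattern that 33.4% of all genes tested showed.

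**Figure D2:**
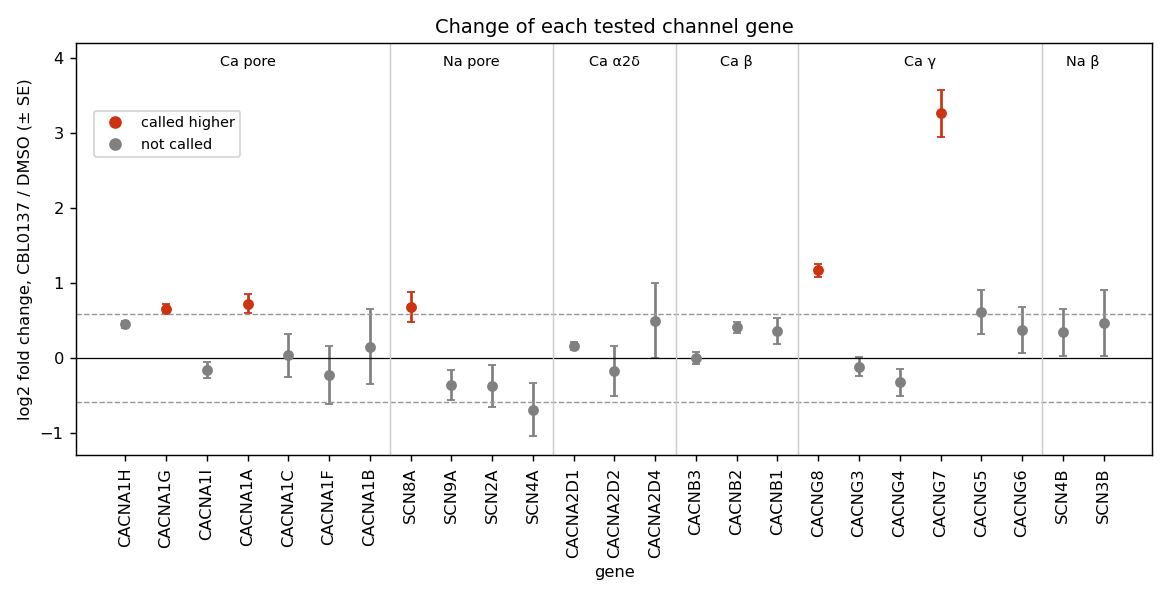
Log2 fold change of CBL0137 over DMSO with its standard error for 25 tested channel genes, by subunit class, in red where called higher and grey where not called; dashed lines mark the fold limit of 1.5. The γ subunit gene CACNG7 stands at 3.27, and pores of sodium channels lie on both sides of 0.

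Promoter sequences were taken from the RefSeq table (build GRCh38.p14), which matched 26 of the 40 members by symbol, among them CACNA1A and SCN8A of the called genes. CACNG7, CACNG8, CACNA1G and CACNA1H did not match. The 250 bases before the start of CACNA1A (chr19:13506480-13506729, minus strand) and SCN8A (chr12:51590983-51591232, plus strand) are shown because both rose, and those of CACNG6 (chr19:53991387-53991636, plus strand) because it lies beside CACNG7 and CACNG8 and was not called. Capitals mark matches to GGGCGG, the core of the GC box bound by SP factors, and to GGAAGGAA, a pair of ETS cores of the kind found in repeats bound by EWS-FLI1, each on either strand and with overlapping matches merged.
CACNA1A: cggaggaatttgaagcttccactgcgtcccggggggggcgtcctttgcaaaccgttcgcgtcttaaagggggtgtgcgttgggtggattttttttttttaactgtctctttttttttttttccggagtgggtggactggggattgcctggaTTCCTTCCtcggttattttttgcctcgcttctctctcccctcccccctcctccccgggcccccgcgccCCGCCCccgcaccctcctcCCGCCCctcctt
SCN8A: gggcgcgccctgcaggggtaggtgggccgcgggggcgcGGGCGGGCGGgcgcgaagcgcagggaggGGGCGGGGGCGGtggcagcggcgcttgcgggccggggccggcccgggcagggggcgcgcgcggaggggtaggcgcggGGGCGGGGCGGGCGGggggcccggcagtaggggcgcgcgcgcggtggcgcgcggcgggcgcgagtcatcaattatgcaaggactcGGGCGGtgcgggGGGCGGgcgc
CACNG6: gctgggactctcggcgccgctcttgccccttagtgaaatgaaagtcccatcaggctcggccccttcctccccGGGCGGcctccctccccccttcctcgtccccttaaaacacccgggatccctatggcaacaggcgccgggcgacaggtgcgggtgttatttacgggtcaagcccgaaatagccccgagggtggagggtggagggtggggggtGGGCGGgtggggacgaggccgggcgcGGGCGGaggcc
The SCN8A window held 9 GGGCGG matches and 85.6% G or C, the CACNA1A window 2 such matches, 1 GGAAGGAA match and 58.8% G or C, and the CACNG6 window 3 GGGCGG matches and 69.2% G or C. Over 27305 promoters of the same length, with 1 start per symbol, 42.3% held GGGCGG and 2.99% held GGAAGGAA, against 16 and 1 of the 26 members. TATAAA was in 11.1% of all promoters and in 1 of 26 members, SCN10A. Of the RE1 element, through which REST silences neuronal genes, the left part TTCAGCACC was in 0.300% of promoters and in 1 member, CACNG3, and the right part GGACAGC in 4.78% and in 0 members. The median G or C content was 65.6% in members and 58% in all promoters.

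The γ subunit genes held the largest fold change among the tested members. CACNG7, whose protein regulates AMPA receptors (ENSG00000105605, chromosome 19, 54412532 to 54447204, plus strand), rose from 11 and 9 counts in DMSO to 84 and 106 in CBL0137, or from 0.481 and 0.400 to 4.0 and 4.58 CPM. Its log2 fold change was 3.27 ± 0.31 (edgeR adjusted p = 6.1e-09), and lay between 3.13 and 3.40 with each library left out. CACNG8, another AMPA receptor partner with a known role in hippocampus (ENSG00000142408, chromosome 19, 54466191 to 54493469, plus strand), measured 15.6 and 13.8 CPM in DMSO and 32.0 and 34.2 in CBL0137. It rose by 1.17 ± 0.09 on the log2 scale (edgeR adjusted p = 7.9e-11). For both genes the treated libraries lay above the controls.

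The remaining γ subunits were not called. CACNG3 measured 10.6 and 13.1 CPM in DMSO and 10.3 and 11.6 in CBL0137 (log2 fold change -0.12 ± 0.12, edgeR adjusted p = 0.50). CACNG4, like CACNG3 an AMPA receptor partner, measured 5.51 and 5.77 CPM in DMSO and 3.81 and 5.14 in CBL0137 (-0.33 ± 0.18, edgeR adjusted p = 0.16). CACNG5 measured 1.36 and 1.33 CPM in DMSO and 1.81 and 2.29 in CBL0137, and its log2 fold change of 0.61 ± 0.30 passed the fold limit without passing the test (edgeR adjusted p = 0.11). CACNG6 measured 1.53 and 1.20 CPM in DMSO and 2.05 and 1.51 in CBL0137, which overlap (0.37 ± 0.31, edgeR adjusted p = 0.38).

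CACNG7, CACNG8 and CACNG6 lie in this order within 103 kb on chromosome 19, and 13 other tested genes lie within 200 kb of them. Among those neighbours, a set chosen after values were seen, edgeR called 1 higher and 0 lower, beside 9.61% of all genes tested in either direction. The called neighbour lies between MYADM and CACNG7, and MYADM, farther upstream, was not called (0.06). OSCAR, the nearest tested gene beyond CACNG6, stayed inside the fold limit at 0.55 ± 0.20 (edgeR adjusted p = 0.033). The related cluster of CACNG5, CACNG4 and CACNG1 on chromosome 17 had 0 called members and 0 called neighbours of 3 tested. Over the 8 places where 2 or more members lie within 500 kb of each other, there were 52 tested neighbours. Of these, 2 were called higher and 0 lower, beside 6.88% and 2.73% of all genes tested.

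**Figure D3:**
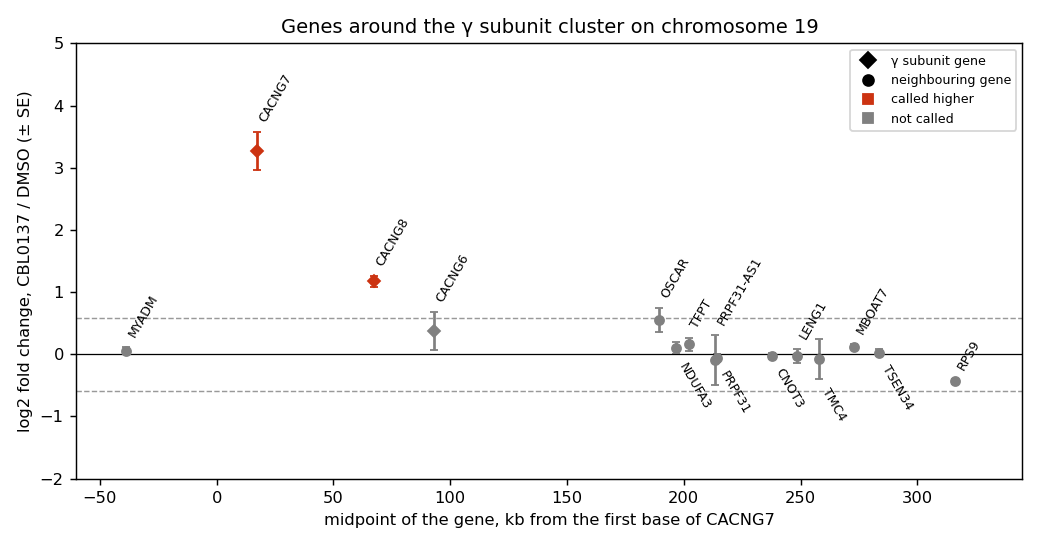
Log2 fold change of CBL0137 over DMSO with its standard error for tested genes within 200 kb of the chromosome 19 γ subunit genes, against the distance of each gene's midpoint from the first base of CACNG7 in kb; diamonds are γ subunit genes, red marks a call, and dashed lines the fold limit. CACNG7 (3.27) and CACNG8 (1.17) lie above the limit, and CACNG6 and the 12 neighbours plotted, which leave out the called one, stay inside it.

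The α2δ and β subunits, which bring high-voltage calcium channels to the membrane, had 0 calls among 6 tested genes (3 and 3), beside 9.61% of all genes tested, and so few genes say little of the class. At an edgeR adjusted p under 0.05 without the fold limit, CACNA2D1 and CACNB2 were higher, beside 17.5% of all genes tested. DESeq2 called neither, with CACNB2 inside the fold limit (0.40, DESeq2 adjusted p = 0.0041) and CACNA2D1 short of the p limit (0.16, DESeq2 adjusted p = 0.147). CACNB2 measured 26.1 and 26.0 CPM in DMSO and 33.7 and 35.4 in CBL0137, without overlap. Its log2 fold change of 0.41 ± 0.07 (edgeR adjusted p = 8.8e-05) was below the fold limit. CACNA2D1, the α2δ subunit bound by gabapentin, measured 65.1 and 63.3 CPM in DMSO and 72.5 and 71.2 in CBL0137 (0.16 ± 0.05, edgeR adjusted p = 0.018). CACNB1, the β subunit of skeletal muscle channels, measured 4.2 and 4.31 CPM in DMSO and 5.71 and 5.18 in CBL0137 (0.35 ± 0.17, edgeR adjusted p = 0.12). These 3 genes had treated libraries above the controls, as 33.5% of all tested genes did. CACNB3 measured 30.2 and 31.0 CPM in DMSO and 32.6 and 28.5 in CBL0137, and its log2 fold change of -0.003 ± 0.08 (edgeR adjusted p = 0.98) turned positive when scaled by upper quartiles (0.045) or by library size (0.059). CACNA2D2 measured 1.62 and 1.29 CPM in DMSO and 1.14 and 1.42 in CBL0137 (-0.17 ± 0.33, edgeR adjusted p = 0.72), and CACNA2D4 stayed between 0.350 and 0.734 CPM in the 4 libraries.

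Sodium channel β subunits, single-pass proteins that also act in cell adhesion, gave 0 calls among 3 tested genes in edgeR and limma-voom, beside 9.61% of all genes tested in edgeR, and 0 at an unadjusted p under 0.05. DESeq2 called none of those it tested. SCN4B measured 1.18 and 1.42 CPM in DMSO and 1.52 and 1.77 in CBL0137 (0.34 ± 0.32, edgeR adjusted p = 0.43). SCN3B, at 0.744 and 0.533 CPM in DMSO and 1.05 and 0.734 in CBL0137, was also not called.

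The 13 members below the count filter had at most 9 counts in any library. CACNA1E (the R-type pore), CACNG2 (stargazin), SCN2B and SCN10A (a pore of sensory neurons) had 0 counts in all 4 libraries, and 0 counts allow a level of up to 0.130 to 0.143 CPM per library by a limit of 3 counts, for counting error only. SCN1A, a pore of inhibitory neurons, had 6 and 2 counts in DMSO and 9 and 5 in CBL0137. CACNA1D, CACNA1S, CACNA2D3, CACNB4, CACNG1, SCN3A, SCN7A and SCN11A had 0 to 4 counts per library, so that changes in them were not detectable at this depth.

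Pore and auxiliary subunits were then set side by side. Of 12 tested pore genes, edgeR called 4 (33.3%), and of 15 tested auxiliary genes 2 (13.3%), beside 9.61% of all genes tested, and the difference between the classes was not tested. The median log2 fold change was 0.09 over tested pore genes, 0.35 over tested auxiliary genes and 0.003 over all genes tested. By sign, 7 pore genes were above and 5 below 0, and 11 auxiliary genes above and 4 below. Outside CACNG7 and CACNG8 no auxiliary gene was called. In DESeq2, 2 of 10 tested pore genes and 2 of 13 tested auxiliary genes were called. Of all genes DESeq2 tested, 3.93% were called higher and 2.16% lower.

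Sums over a class are dominated by its most abundant members. The 20 pore genes summed to 206 and 194 CPM in DMSO and 260 and 280 in CBL0137, a ratio of 1.35. The 20 auxiliary genes summed to 169 and 169 CPM in DMSO and 207 and 210.0 in CBL0137, a ratio of 1.24. For both sums the treated libraries lay above the controls. Among auxiliary classes the γ subunits had the highest ratio, 1.6, with 35.1 and 35.7 CPM in DMSO and 53.9 and 59.4 in CBL0137, followed by sodium channel β, calcium channel β and α2δ subunits with ratios of 1.19, 1.16 and 1.12. Sodium channel pores summed to 12.5 and 12.6 CPM in DMSO and 13.7 and 12.9 in CBL0137, a ratio of 1.06 (1.23 on FPKM), with SCN8A called higher and SCN9A, SCN2A and SCN4A at lower values that were not called. Per length, the ratio of pore FPKM to auxiliary FPKM was 0.849 and 0.753 in DMSO and 0.842 and 0.887 in CBL0137, values that overlap. On CPM, not corrected for length, the ratio was 1.22 and 1.15 in DMSO and 1.25 and 1.33 in CBL0137, which do not overlap.

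**Figure D4:**
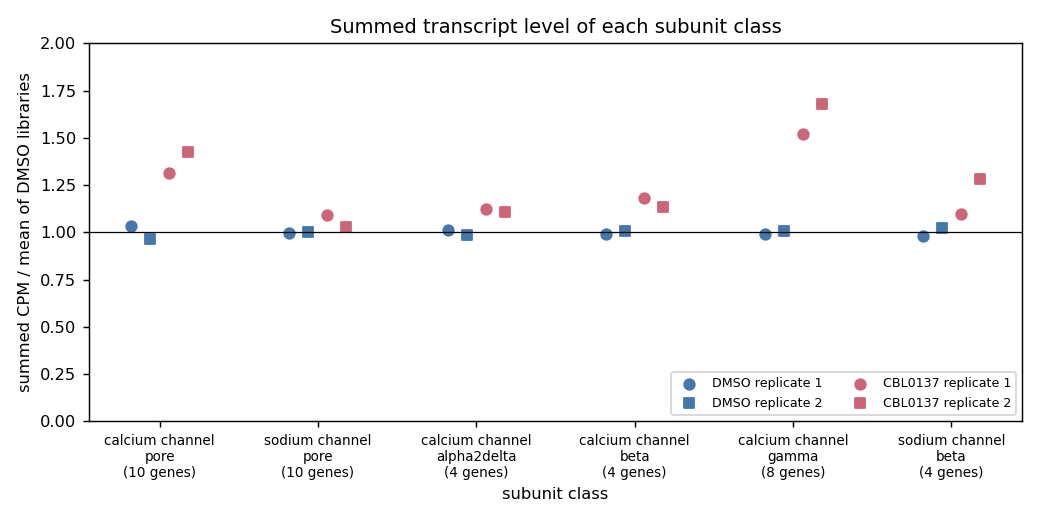
Summed CPM of each subunit class in each library divided by the mean of the 2 DMSO libraries (blue DMSO, red CBL0137; circles replicate 1, squares replicate 2; the number of genes is under each class). Calcium channel γ subunits have the largest ratio of CBL0137 to DMSO means, 1.6, and sodium channel pores the smallest on CPM, 1.06; on FPKM the smallest is that of α2δ subunits, 1.16.

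Genes that act with these channels were taken from lists by function. Of 11 tested calcium channel regulators, 2 fell and 0 rose, beside 2.73% and 6.88% of all genes tested. CALM3, which encodes calmodulin, the calcium sensor bound to channel tails, measured 396 and 394 CPM in DMSO and 217 and 235 in CBL0137, a fall of -0.81 ± 0.04 (edgeR adjusted p = 2.9e-14). CALM2, which encodes the same protein, had a log2 fold change of -0.48 ± 0.04 and was not called. GEM, a small GTPase that inhibits high-voltage calcium channels, fell from 9.85 and 10.8 to 7.38 and 6.09 CPM (-0.62 ± 0.14, edgeR adjusted p = 9.4e-04), and lay within 1.5-fold when scaled by upper quartiles (-0.57) or by library size (-0.56), and when DMSO replicate 2 (-0.56) or CBL0137 replicate 2 (-0.49) was left out. Its relatives REM1, with 0 counts, and RRAD and REM2, with at most 11, were below the filter. Of 13 tested sodium channel partners, FGF14, an intracellular modulator of sodium channel gating, fell from 8.01 and 7.19 to 5.14 and 4.53 CPM (-0.65 ± 0.16, edgeR adjusted p = 0.0017). None of the others was called, beside 2.73% of all genes lower, and the FGF14 call was lost without DMSO replicate 1 (-0.58) or CBL0137 replicate 2 (-0.57). Its paralog FGF13 had a log2 fold change of 0.19 ± 0.07 and was not called.

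Of 24 tested genes of calcium stores, pumps and exchangers, 5 rose and 0 fell, beside 6.88% of all genes called higher. SLC8A2, a sodium-calcium exchanger, rose from 3.54 and 3.33 to 6.71 and 7.30 CPM (1.03 ± 0.17, edgeR adjusted p = 3.3e-05). ORAI2, a store-operated calcium channel, stood at the limit with 49.5 and 44.9 CPM in DMSO and 70.7 and 70.8 in CBL0137 (0.585 ± 0.06, edgeR adjusted p = 1.5e-08), and slipped inside it under RLE factors, DESeq2, no count filter and without any library but DMSO replicate 1 (0.51 to 0.58). ATP2A3, a calcium pump of the endoplasmic reticulum, rose by 0.69 ± 0.17 and RYR2, a calcium release channel, by 0.65 ± 0.16 on the log2 scale (edgeR adjusted p = 0.0018 and 0.0028). RYR2 lost its call in DESeq2 (adjusted p = 0.0628) and without DMSO replicate 2 (0.55) or CBL0137 replicate 2 (0.45), and ATP2A3 without CBL0137 replicate 2 (0.57). The plasma membrane pump ATP2B3, noted after its values were seen, also rose (1.11 ± 0.42).

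In the last 3 lists, 11.8% of related cation channels, 20% of sodium pump subunits and 6.25% of calcium-dependent signalling genes tested were called higher, beside 6.88% of all genes. Of 17 tested related cation channels, 2 rose and 0 fell: CATSPER1, a pore of the sperm calcium channel, from 1.05 and 0.489 to 1.76 and 2.63 CPM (1.51 ± 0.36, edgeR adjusted p = 0.0018), and NALF2, a subunit gene of the sodium leak channel complex, from 2.01 and 1.78 to 4.33 and 3.02 CPM (0.95 ± 0.25, edgeR adjusted p = 0.0037). NALF2 lost its call in DESeq2 (adjusted p = 0.0645) and without CBL0137 replicate 1 (0.67), and NALCN, the leak pore itself, was not called (0.51 ± 0.48). Of 5 tested sodium pump subunits, ATP1B2 rose (0.65 ± 0.16, edgeR adjusted p = 0.0028) and 0 fell, with the call lost in DESeq2 (adjusted p = 0.0638) and without DMSO replicate 1 (0.48). Of 16 tested genes of calcium-dependent signalling, NFATC2, a calcineurin-dependent transcription factor, rose from 6.13 and 6.79 to 10.0 and 10.2 CPM (0.65 ± 0.14, edgeR adjusted p = 4.6e-04), 0 fell, and its call was lost without DMSO replicate 1 (0.57).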

How the data were processed

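RNA-seq was available for 2 DMSO and 2 CBL0137 libraries of A673 cells, grouped by sample title. Per the submitters' processing notes, the authors used Trim Galore, HISAT2 against hg19 and HTSeq 0.11.1 for the deposited gene counts; DESeq2 1.26.0 is also named there. The deposited FPKM were, per the series' description, computed by the authors from mapped reads, gene length and depth, by an unnamed tool. Annotation release, strand setting and RNA selection: not given in the sources used here.

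Of 60623 rows, 60617 name a gene; HTSeq summary rows held 23.7% to 24.8% of reads per library and stayed out. Ensembl IDs were matched to GENCODE 44 on GRCh37 (58524 matched). Counts were tested with edgeR 4.0.16 in R 4.3.3 (TMM, filterByExpr at a minimum count of 10, quasi-likelihood test, Benjamini-Hochberg over all genes tested; limits of adjusted p 0.05 and 1.5-fold). The standard error is the log2 fold change divided by the square root of F. CPM is TMM-scaled. The common biological coefficient of variation was 3.18%. The fit was checked on simulated counts. DESeq2 1.42.0, limma 3.58.1 (voom, and trend on log2(FPKM + 1)), other scalings and filters, left-out replicates and a replicate block were alternatives.

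Members and lists were chosen with earlier results of these data known. Every member enters the counts; values of some genes are not reported here. A fold change is given for called members and for other tested members averaging 1 CPM or more, and up to 4 called genes are named per list, those of smallest adjusted p.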

Additional observations from a re-analysis of the deposited data

How the results depend on the processing

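The 6 calls among channel genes were kept with limma-voom, without the count filter, by library size alone and with RLE or upper-quartile factors; a filter of 1 CPM kept 5. Without each replicate in turn, 4 to 5 members were called higher and 0 to 1 lower, 2 to 4 pore genes were called in either direction, and auxiliary calls stayed at 2. DESeq2 called 2 pore genes and, over all genes, 593 higher. Without the fold limit, 4 auxiliary genes passed, with 3022 genes higher and 3292 lower over all. Limma on log2(FPKM + 1) and log2(FPKM + 0.1) for genes of at least 1 FPKM in 2 libraries called 1 member higher in each (CACNG8, so 1 auxiliary and 0 pore genes). Over all genes, 388 and 489 were called higher and 189 and 237 lower. These fits tested only 10 members, 3 pore and 7 auxiliary. They left out SCN8A and CACNG7, the latter at 0.152 and 0.0834 FPKM in DMSO and 0.993 and 1.14 in CBL0137. With all genes above 0 FPKM, 0 genes were called among members, pore, auxiliary or all genes in either direction. The auxiliary sum ratio was 1.29 by library size and 1.29 by FPKM. Other scalings moved the median of all genes by at most 0.0616, and the share of calls that were higher from 71.6% to 79.8% by library size alone.

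Of 444 values of 32 named genes under alternatives, 381 kept their side of the limits, 50 lost a call, 1 gained one and 12 changed sign, in genes that were not called. These were CACNB3 under upper-quartile factors (0.045), library size alone (0.059), a filter of 1 CPM (0.0089), the FPKM tests (0.13, 0.15 and 0.13) and without DMSO replicate 2 (0.0077) or CBL0137 replicate 2 (range over left-out replicates -0.11 to 0.092), CACNG3 without DMSO replicate 2 (range -0.27 to 0.036), CACNA1C without DMSO replicate 2 (-0.14) or CBL0137 replicate 2 (range -0.39 to 0.34) and SCN9A in FPKM above 0 (0.14). The cause was not tested. Replicate numbers are only names here: the replicate differences of the 2 groups had a correlation over genes of -0.0001. With the replicate block, 6 members were called higher and 0 lower, 4 pore and 2 auxiliary, with 1128 and 448 over all genes, and no named call changed. With 2 libraries per group, depth limits what can be called under about 1 CPM.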

Other observations

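CACNG7 and CACNG8 encode partners of AMPA receptors, so the receptor subunits were looked up after those values were seen. GRIA1, GRIA2 and GRIA3 had 0 to 4 counts in every library and were below the count filter. GRIA4 measured 0.919 and 0.799 CPM in DMSO and 0.524 and 0.950 in CBL0137, and was not called. Of other partners, SHISA6 stood at 112 and 111 CPM in DMSO and 89.0 and 89.0 in CBL0137 (log2 fold change -0.33, inside the fold limit). CNIH2 measured 6.91 and 8.93 CPM in DMSO and 9.24 and 6.74 in CBL0137, and the scaffold DLG4 62.4 and 65.8 against 65.7 and 65.4, both with overlapping conditions.

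The deposited FPKM departed from the counts for some members. FPKM divided by CPM should be constant for a gene across libraries if both rest on the same reads and length, and its highest value was more than 2 times its lowest in 5 of 27 tested members (18.5%) and in 11.2% of 17284 tested genes with values above 0. For CACNA1C the factor was 19.8, with 0.536 FPKM in CBL0137 replicate 2 and at most 0.0289 elsewhere. Its counts ranged from 34 to 62. The factor was 5.51 for SCN4A, 4.45 for CACNA2D4, 3.61 for CACNA1A and 2.32 for CACNA1F.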
